A study of Rattus norvegicus with 6 samples.

Results

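Arg1, Cd163, Tgfb1 and Il10 are 4 genes often read as signs of macrophages in a repair-type state, and they were followed here in the injured spinal cord of 6 adult female Sprague-Dawley rats. They were chosen by gene identity and not by a rule on their values, though with earlier results of these data known. All 4 were found among the 22526 genes of the deposited table. All 6 rats had a spinal cord injury and received an implant of decellularized optic nerve, that is, nerve stripped of its cells. Cord RNA was sequenced at 2 weeks, a time that the sample titles give beside the implant. In 3 rats the implant was the plain scaffold (DON), and in the other 3 it carried Apt19S (A-DON), an aptamer, which is a short folded nucleic acid that binds a target. With no uninjured and no unimplanted group, every difference below is between the 2 kinds of scaffold. The source of the optic nerve, the agent's dose and the length of cord taken are not stated in the sources used here.

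After spinal cord injury, blood-derived macrophages and resident microglia gather in and around the lesion, and part of them take on a state tied to debris removal, matrix formation and the damping of inflammation. Transforming growth factor beta 1 (Tgfb1) is a secreted ligand that is released in latent form, signals through SMAD proteins and drives matrix production. Interleukin 10 (Il10) is a secreted cytokine that acts through STAT3 to restrain inflammatory genes. Cd163 is a scavenger receptor of macrophages that takes up haemoglobin bound to haptoglobin, and arginase 1 (Arg1) is an enzyme that splits arginine into ornithine and urea, drawing on the substrate of inducible nitric oxide synthase. Tgfb1 is expressed by many cell types and Il10 also by lymphocytes, so neither is made by macrophages alone.

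The Ensembl IDs are ENSRNOG00000020652 for Tgfb1, ENSRNOG00000004647 for Il10, ENSRNOG00000010253 for Cd163 and ENSRNOG00000013304 for Arg1. These names came with the choice of the genes, because the table gives IDs alone and 0 of its 22526 IDs were found in the reference gene table. Markers of macrophages, microglia and other cells could not be matched for the same reason, so neither the macrophage origin of these transcripts nor the labelled tissue was checked. In whole cord a lower level can mean fewer cells of a type or less RNA per cell, and these cannot be told apart. The recovered reads came to between 24961512 and 31189687 per library. A-DON replicate 2 stood apart from the rest of its group: on the first principal component, with 70.5% of the variance, it scored 15.6 against 144 and 128 in the other A-DON rats and -113 to -71.0 in DON. Results are therefore given with and without it. Because it was singled out in these same data for lying nearest to DON, results without it are descriptive and no independent support.

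Promoter sequences were matched by symbol for 2 of the 4 genes, Tgfb1 and Cd163. They are shown because they had an entry among the promoter sequences, and not for their expression values. The sequences are the 250 bases before the start site in RefSeq on build GRCr8, on the plus strand at chr1:90324062-90324311 for Tgfb1 and chr4:158770524-158770773 for Cd163. The expression values were made on another build, rn6. Capitals mark the core GGAA, on either strand, that proteins of the ETS family (which includes PU.1, a factor of the myeloid lineage) recognise.

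Tgfb1: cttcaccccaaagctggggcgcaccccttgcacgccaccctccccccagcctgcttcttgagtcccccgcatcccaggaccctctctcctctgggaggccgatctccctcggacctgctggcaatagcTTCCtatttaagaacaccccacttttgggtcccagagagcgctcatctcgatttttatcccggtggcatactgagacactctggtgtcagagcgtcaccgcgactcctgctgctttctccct

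Cd163: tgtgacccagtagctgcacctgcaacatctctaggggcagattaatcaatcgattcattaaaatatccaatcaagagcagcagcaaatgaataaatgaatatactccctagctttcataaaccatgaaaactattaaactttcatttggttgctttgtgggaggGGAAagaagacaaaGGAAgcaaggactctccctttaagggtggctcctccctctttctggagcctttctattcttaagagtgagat

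The core was present once before Tgfb1, 122 to 119 bases upstream of the start and on the opposite strand, and 2 times before Cd163, at 86 to 83 and 72 to 69 bases upstream. At least 1 copy is held by 93.2% of all 33469 promoter windows of that length, so its presence is no mark of these genes. Searches on both strands for GAGGAA (a longer PU.1 form that contains the core; 23.3% of windows), TGANTCA (AP-1; 6.34%), TTCNNNGAA (STAT; 7.67%), GGGCGG (the GC box; 30.5%) and the TATA box (letters TATAAA; 12.9%) found these letters in neither window. The windows differed in base composition, with 60% G and C before Tgfb1 and 40.8% before Cd163, against a median of 51.2% over all windows.

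Tgfb1, the secreted growth factor, fell in A-DON. It had 4015, 3687 and 3281 normalized counts (reads divided by a scaling factor for the library) in DON replicates 1, 2 and 3, and 406.3, 2123 and 550.7 in A-DON replicates 1, 2 and 3. All 3 A-DON rats were below all 3 DON rats, and A-DON replicates 1 and 3 were far below replicate 2. A position with all A-DON below all DON values was found in 27.9% of the 19515 genes tested. DON had a mean of 3661 ± 368 (SD, n = 3) and A-DON one of 1027 ± 952 (SD, n = 3), so that the mean was 3.57 times as high in DON. All fold changes here are on the scale of log2(normalized count + 1), as differences between the group means of these log2 values. For Tgfb1 the difference was -2.22 (standard error 0.61), and its 95% interval ran from -3.70 to -0.74. It passed the threshold of 0.05 in limma's test over all genes, with a Benjamini-Hochberg adjusted p of 0.0362. The fit takes the same spread for both groups, but the SD of the log2 values was 0.15 in DON and 1.27 in A-DON. A fit that allows unequal spread was not run, so the call rests on that assumption.

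Single libraries decided that call for Tgfb1, although not its direction. Without A-DON replicate 2 the log2 difference was -2.94 with a limma adjusted p of 0.000708. Without A-DON replicate 1 or 3 it was -1.75 and -1.97, with limma adjusted p of 0.111 and 0.124. Without DON replicate 1, 2 or 3 it was -2.15, -2.22 and -2.30, with limma adjusted p of 0.0899, 0.0806 and 0.0919. Each of these fits had 1 rat fewer, and the interval of the log2 difference stayed below 0 in all 6. Between 422 and 4212 reads stood behind each value, and the exact Poisson 95% interval of the lowest, in A-DON replicate 1, was 383 to 464 reads.

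**Figure D1:**
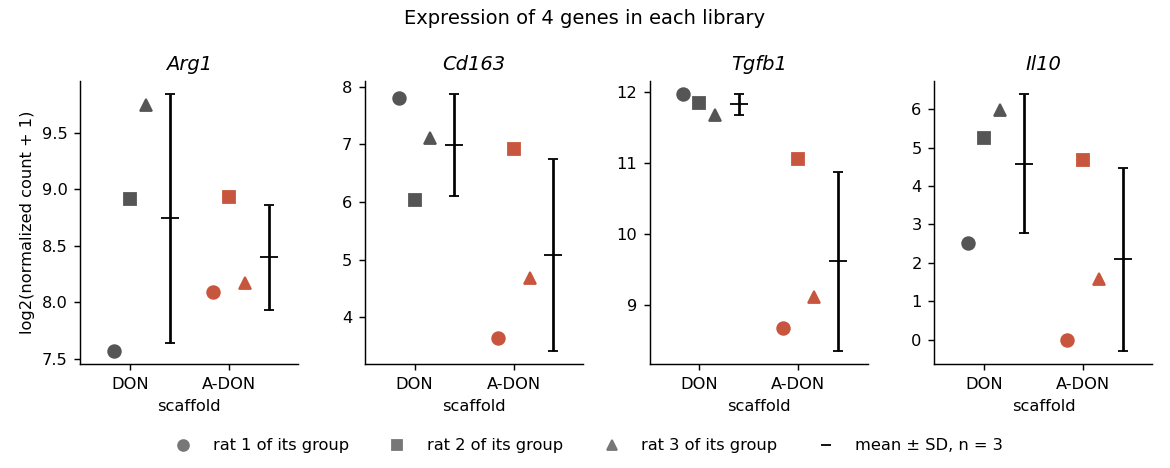
Level of each gene in each library, as log2(normalized count + 1) on axes that differ between panels and do not start at 0. Symbols are single rats (circle, square and triangle for rats 1, 2 and 3 of a group, which are different animals in DON and A-DON), and bars are the mean ± SD of 3 rats. Tgfb1 is the gene whose groups do not overlap, and A-DON replicate 2 is the highest A-DON rat in all 4 panels.

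Il10, the cytokine, was scarce, and its difference did not pass the test. DON replicates 1, 2 and 3 had 4.77, 37.2 and 61.6 normalized counts, from 5, 39 and 61 reads. A-DON replicate 2 had 24.8 normalized counts from 23 reads. Replicate 3 of that group had 2 reads, with an exact Poisson 95% interval of 0.242 to 7.22, and replicate 1 had 0, for which the interval ends at 3.69 and the one-sided limit is 3 reads. Intervals and limits of this kind cover counting error only. A-DON replicates 1 and 3 were below every DON rat, while A-DON replicate 2 lay inside the DON range. The counting interval of DON replicate 1, 1.62 to 11.7 reads, overlapped those of both, so they were not separated from that rat at this depth. The mean of DON was 34.5 ± 28.5 and that of A-DON 8.93 ± 13.8 (SD, n = 3 each). The log2 difference was -2.50 with a standard error of 1.44, a 95% interval of -6.02 to 1.02 and a limma adjusted p of 0.211. Without A-DON replicate 2 it was -3.80, with a limma adjusted p of 0.0465. Leaving out any other single rat gave -3.52 to -1.45 with limma adjusted p of 0.126 to 0.497, the smallest size being without A-DON replicate 1. At these read numbers the size depends on the constant added before the log: with 0.1 in place of 1 it was -3.69 (limma adjusted p = 0.216).

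Cd163, the haemoglobin scavenger receptor, also lay lower in A-DON replicates 1 and 3, and its difference did not pass the test with all rats. It had 222.1, 64.8 and 137.4 normalized counts in DON replicates 1, 2 and 3, and 11.6, 119.8 and 24.7 in A-DON replicates 1, 2 and 3. The groups overlapped through 1 pair of rats, A-DON replicate 2 being above DON replicate 2, and 8 of the 9 pairs had the A-DON rat lower. With 12 reads in A-DON replicate 1 (95% interval 6.20 to 21.0) and 25 in replicate 3 (16.2 to 36.9), the counting intervals of these 2 rats overlapped. Both lay below the 52.8 to 86.2 reads of DON replicate 2, the lowest DON rat. Group means were 141.4 ± 78.7 for DON and 52.0 ± 59.0 for A-DON (SD, n = 3 each). The log2 difference was -1.90 with a standard error of 0.91, a 95% interval of -4.13 to 0.32 and a limma adjusted p of 0.143. Without A-DON replicate 2 it was -2.82 with a limma adjusted p of 0.0170, and leaving out any other single rat gave -2.37 to -1.18 with limma adjusted p of 0.129 to 0.361, the smallest size being without A-DON replicate 1.

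Arg1, the arginine-splitting enzyme, had no difference between the groups that the test could tell from the spread between rats. DON replicates 1, 2 and 3 had 188.7, 481.5 and 860.8 normalized counts, a 4.56-fold range from 198 to 852 reads. A-DON replicates 1, 2 and 3 had 271.5, 487.6 and 287.7, all inside the DON range. Means were 510.3 ± 337 for DON and 349.0 ± 120 for A-DON (SD, n = 3 each). The log2 difference was -0.35 (standard error 0.57), and the limma adjusted p was 0.653. Its 95% interval, -1.75 to 1.05, covers 2-fold changes in both directions, so it does not show that the groups are alike. The sign turned to 0.16 without DON replicate 3 and reached -0.93 without DON replicate 1 (limma adjusted p of 0.833 and 0.126). Without A-DON replicate 2 it was -0.61 (limma adjusted p = 0.462).

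**Figure D2:**
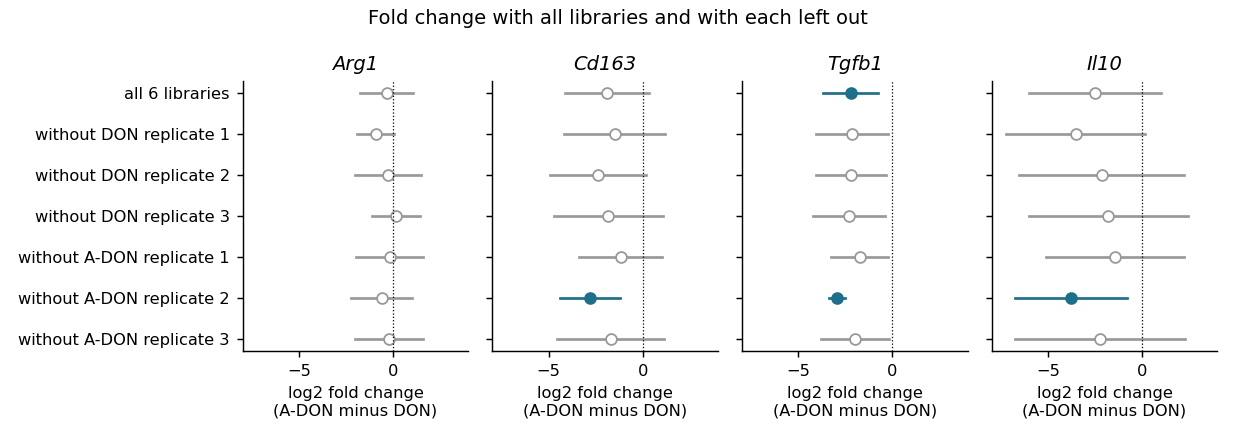
Log2 fold change (A-DON minus DON) of each gene with all 6 libraries and with each library left out. Points are limma estimates, lines their 95% intervals, and filled points passed the adjusted p threshold of 0.05. Tgfb1 passed with all libraries and without A-DON replicate 2, Cd163 and Il10 passed only in the fit without A-DON replicate 2, and Arg1 passed in none of the 7 fits.

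Of the 4 genes, 1 passed the test in all 6 libraries and it was lower in A-DON. Over all 19515 genes tested, 35.5% passed in either direction and 16.6% were lower, so that 1 of 4 is close to the share of genes at large. Scaling to equal library totals moved the balance of calls over all genes from 3232 lower and 3698 higher to 2418 lower and 4372 higher, and Tgfb1 kept its call there (log2 difference -2.13, limma adjusted p = 0.0444). Without A-DON replicate 2, 3 of the 4 passed as lower, beside 24.9% of all genes. That rat was singled out for lying nearest to DON, so leaving it out favours larger differences, and these passes are no independent support. All 4 log2 differences were below 0 (that of Arg1 not without DON replicate 3), with a median of -2.06 beside -0.02 over all genes. In rank among all genes tested, counted from the lowest difference, Il10 was at the 4.22 percentile, Tgfb1 at the 6.18 percentile, Cd163 at the 9.06 percentile and Arg1 at the 36.0 percentile. In level Tgfb1 was at the 86.2 percentile of mean normalized counts, Arg1 at the 50.3, Cd163 at the 29.9 and Il10 at the 18.9 percentile, a description in reads that is not corrected for gene length.

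**Figure D3:**
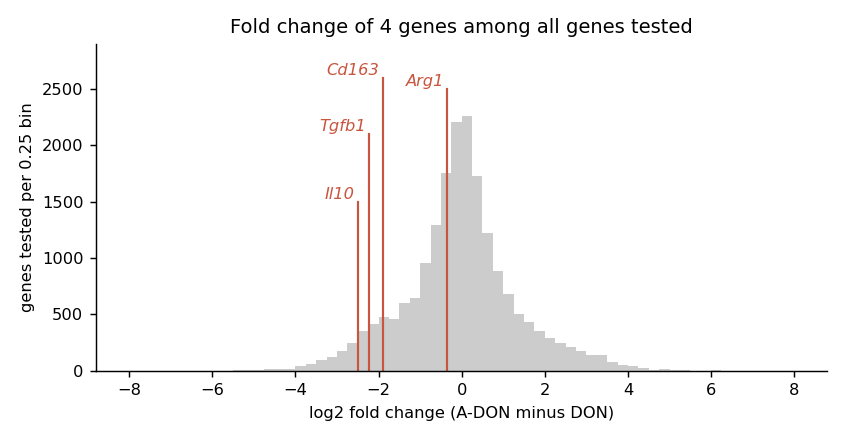
Histogram of the log2 fold change (A-DON minus DON) of the 19515 genes tested, in bins of 0.25, with the 4 genes as vertical lines whose heights serve only to hold the names. Il10, Tgfb1 and Cd163 lie in the lower tail, between -2.50 and -1.90, and Arg1 lies at -0.35 in the body of the distribution.

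The spread between rats was wide for 3 of the genes already within DON. The SD of the DON log2 values was 1.82 for Il10, 1.10 for Arg1 and 0.89 for Cd163, where the median over all genes tested was 0.28. Only Tgfb1, with 0.15, was below that median. The genes behind the median were not matched in level, and Il10 and Cd163 were at the 18.9 and 29.9 percentiles of mean normalized counts. The share of counting error in these SDs was not tested. In A-DON the SDs were 2.39 for Il10, 1.67 for Cd163, 1.27 for Tgfb1 and 0.46 for Arg1, with a median of 0.29 over all genes. Arg1 was thus the gene of the 4 with the smaller log2 SD in A-DON than in DON, and Tgfb1 went from the tightest of the 4 in DON to a spread at the 90.9 percentile of all genes in A-DON.

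A-DON replicate 2 lay nearer to the DON mean than the other A-DON rats in all 4 genes. Its level was 84.7% of the DON mean for Cd163, 71.9% for Il10, 58.0% for Tgfb1 and 95.6% for Arg1. The mean of A-DON replicates 1 and 3 was 12.8% of the DON mean for Cd163, 2.86% for Il10 (2 reads in all, with a counting interval of 0.342% to 10.2%), 13.1% for Tgfb1 and 54.8% for Arg1. Cd163, Il10 and Tgfb1 are among 1962 genes with a DON mean of at least 30 normalized counts whose mean in A-DON replicates 1 and 3 was at most 25% of it. Over those genes, chosen by these values, the median of A-DON replicate 2 was 55.1% of the DON mean (quartiles 43.6% and 66.7%). Tgfb1 was within these quartiles, and Il10 and Cd163 were above the upper one. For Il10 that place is not settled, as A-DON replicate 2 had 23 reads with a 95% counting interval of 14.6 to 34.5. A position with A-DON replicates 1 and 3 below every DON rat, which Tgfb1, Cd163 and Il10 share, was found in 35.7% of all genes tested.

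Ratios between the genes within a library do not depend on how libraries are scaled, apart from the added 1. Arg1 stood higher relative to Tgfb1 in A-DON replicates 1 and 3 than in any DON rat. The log2 ratio of Arg1 to Tgfb1 was -0.58 and -0.93 there, -2.12 in A-DON replicate 2, and -4.40, -2.93 and -1.93 in DON replicates 1, 2 and 3. The difference between the group means, 1.88 on the log2 scale, had an exact two-sided permutation p of 0.2 (0.6 adjusted over the 6 ratios). For Arg1 to Cd163 the difference was 1.56 (exact permutation p = 0.4, adjusted 0.8) and for Arg1 to Il10 2.15 (exact permutation p = 0.2, adjusted 0.6). In both of these ratios, too, A-DON replicates 1 and 3 were above every DON rat, and A-DON replicate 2 was inside the DON range. Each difference equals the log2 difference of Arg1 minus that of the other gene, so the ratios are no separate evidence. How many other genes hold such a position over Tgfb1, Cd163 or Il10 was not counted, so it cannot be called particular to Arg1. The smallest p that 3 rats against 3 allow is 0.1, so no ratio could pass the threshold. Among Cd163, Tgfb1 and Il10 the ratios differed by 0.32 for Cd163 to Tgfb1, 0.59 for Cd163 to Il10 and 0.27 for Tgfb1 to Il10, with exact permutation p of 0.6, 0.8 and 0.9. The ratios to Il10 depended on the constant: with 0.1 in place of 1 they differed by 3.35 (Arg1), 1.75 (Cd163) and 1.47 (Tgfb1), while Arg1 to Cd163 differed by 1.60, so the ratios cannot be ranked by size.

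**Figure D4:**
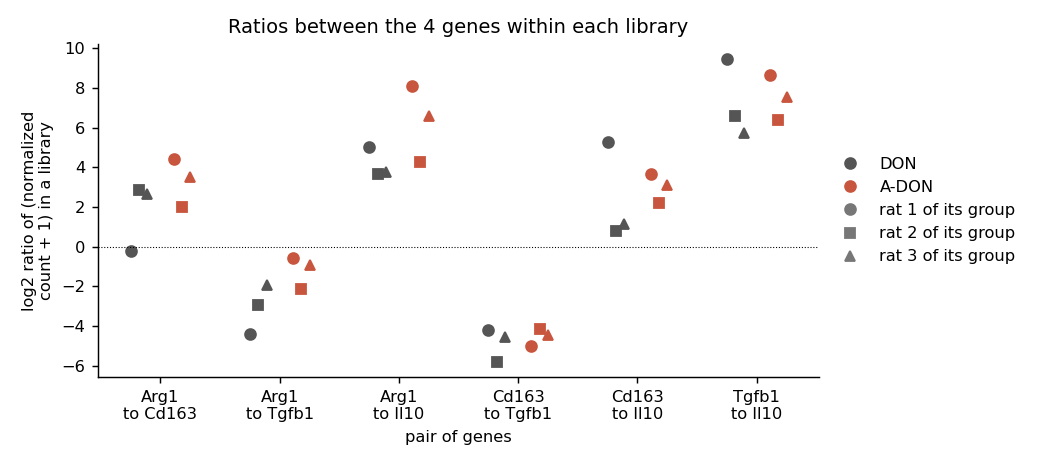
Log2 ratio of (normalized count + 1) for each of the 6 pairs of genes within each library, with DON in grey and A-DON in red and the symbol for the rat's number within its group. For the 3 ratios with Arg1 on top, 2 A-DON rats (replicates 1 and 3) lie above all DON rats, and for Cd163 to Tgfb1 the groups lie over each other.

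Over the 6 libraries, log2 values of Cd163 and Tgfb1 had a Pearson r of 0.92, Arg1 and Il10 one of 0.81 and Tgfb1 and Il10 one of 0.81, whereas Arg1 had an r of 0.24 with Cd163 and 0.35 with Tgfb1. The 6 points share libraries and the difference between groups, so these coefficients only describe the profiles. Among 14703 other genes averaging 50 or more normalized counts, 1987 (13.5%) had an r of at least 0.95 with Tgfb1, 468 (3.18%) with Cd163, 46 (0.313%) with Il10 and 10 (0.068%) with Arg1. The profile most like a gene of the 4 was that of ENSRNOG00000021100, with an r of 0.9995 with Tgfb1. It had 1680, 1475 and 1342 normalized counts in DON replicates 1, 2 and 3 and 129.0, 830.7 and 165.1 in A-DON replicates 1, 2 and 3. ENSRNOG00000006079 followed, with an r of 0.9994 with Tgfb1 and means of 764.5 in DON and 233.2 in A-DON. The rule also took the nearest IDs with a log2 difference above 0, ENSRNOG00000012215 and ENSRNOG00000003304, with r of 0.91 with Arg1 for both. Neither differed between groups by the test (log2 differences of 0.02 and 0.14, limma adjusted p of 0.961 and 0.936), and on the linear scale their means were higher in DON, at 121.5 against 120.5 and 89.6 against 52.3 normalized counts. The names of these 4 IDs are not used here.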

How the data were processed

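Per the labels' protocols, stranded mRNA libraries from the spinal cord of 6 rats were run on an Illumina NovaSeq machine. FastQC 0.11.2, STAR 2.5.3a, StringTie 1.3.1c and build rn6 are named in the submitters' processing notes, with no role. No source used here gives the read counter, whether it used strand, or the annotation. The table the authors deposited holds log2 values, and undoing the log2 and taking off 1 gave whole multiples of 1 step per library for 100% of values, within 0.05 reads. The values are thus log2(reads / size factor + 1). The whole numbers are the recovered reads of the text.

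Genes with at least 1 normalized count in at least 3 libraries (19515, all 4 members included) were fitted with limma 3.58.1 in R 4.3.3 on group alone, with intensity trend and robust moderation. The fit was tested on simulated data. The simulation gave both groups the same variation between rats, so it does not test the fit under the unequal spread seen here. P-values were adjusted by Benjamini-Hochberg over all genes. Ratios were compared by exact permutation (scipy 1.17.1), and exact Poisson intervals were computed for reads. Replicates are separate rats, and rats sharing a number in the titles were not treated as pairs. The alternatives were other filters, scalings and constants, limma without trend and robust moderation, voom, leaving out each library, and a block on the rat number.

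The members, lists and alternatives were chosen with earlier results of these data known. The named genes were to be the 4 members, 138 symbols of 15 pathway and marker lists, and the genes with the most alike profile. The lists could not be matched to IDs and gave no value. For want of symbols, 2 alike IDs per direction are named.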

Additional observations from a re-analysis of the deposited data

How the results depend on the processing

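Direction and side of the threshold were kept by Cd163, Il10 and Arg1 under all 8 settings other than leaving out a library, with log2 differences of -1.97 to -1.79, -3.69 to -2.43 and -0.35 to -0.25. Tgfb1 kept its direction under all 8 (-2.24 to -2.13) and its call under 7, with limma adjusted p of 0.0275 to 0.0497. With the replicate number as a block, its log2 difference was -2.22 and its limma adjusted p 0.0751. That fit called 0 of 19515 genes, against 6930 called without the block. An unadjusted limma p under 0.05 was found for 7601 genes with the block and for 9751 without it. Deviations from the group means had r of -0.17, -0.24 and -0.08 in rats of the same number. No A-DON rat correlated best with the DON rat of its own number. With 3 rats per group these r values depend on each other, so they cannot tell whether rats of the same number shared a batch. Leaving out 1 library gave log2 differences of -2.94 to -1.75 for Tgfb1, -2.82 to -1.18 for Cd163, -3.80 to -1.45 for Il10 and -0.93 to 0.16 for Arg1, and 12 to 9286 called genes. Counts were lowest without A-DON replicate 3 (12) and 1 (35), were 3890, 3930 and 1552 without DON replicates 1, 2 and 3, and were highest without A-DON replicate 2; the fits have fewer rats, and other causes were not tested.

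The 3 ratios with Arg1 kept their sign throughout, with leave-one-out ranges of 0.56 to 2.21 (to Cd163), 1.22 to 2.46 (to Tgfb1) and 1.26 to 3.18 (to Il10). The others did not: Cd163 to Tgfb1 ran from -0.16 to 0.66, Cd163 to Il10 from -0.21 to 2.03 and Tgfb1 to Il10 from -0.50 to 1.37. Their signs turned without DON replicate 2 (-0.158, -0.213 and -0.0556 in that order), without DON replicate 3 (-0.0344 for Cd163 to Il10 and -0.497 for Tgfb1 to Il10) and without A-DON replicate 1 (-0.301 for Tgfb1 to Il10), and the cause was not tested. Depth limits Il10 most, with 0 to 61 reads per library.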

Other observations

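DON replicate 1 differed from the other DON rats in the balance of these genes. It was the lowest DON rat for Arg1 and Il10 and the highest for Cd163 and Tgfb1. Reads of Arg1 were 0.850 times those of Cd163 in this rat, against 7.43 and 6.26 times in DON replicates 2 and 3. Reads of Tgfb1 were 842.4 times those of Il10 in it, against 99.2 and 53.2 times, with only 5 reads of Il10 behind the first value. Such ratios between genes are in reads and are not corrected for gene length, so only their change from rat to rat can be read. The pattern was noticed in these data and was not tested.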
